A study of Mus musculus with 2 samples.

Results

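Of the 8318 peaks of Arid1b signal listed for cultured mouse dental mesenchyme cells, 829 lay where the ends of 2 or more neighbouring protein-coding genes come together. A peak was counted here when its summit was within 1 kb of an annotated outer boundary (start or end of the gene body) of each of at least 2 different protein-coding genes, and such peaks are called shared peaks. The signal came from chromatin immunoprecipitation with sequencing (ChIP-seq), in which DNA fragments bound by a protein are recovered with an antibody and their pileup is compared with input chromatin. There were 2 libraries, 1 precipitated with an Arid1b antibody and 1 of input without antibody, both from wild-type C57BL/6 mice. The primary cells were cultured in medium with 10% serum and came from the apical end of the first lower molars, taken between postnatal day 3.5 and 7.5. The series title and design text name Arid1a and mice carrying a conditional Arid1a allele with Gli1-CreER, whereas the sample labels name the Arid1b antibody and wild-type cells, and no library of the conditional mice was analysed here. The labels do not say whether cells of several animals were pooled, and a culture of this kind is a mixture in which binding in fewer cells and weaker binding in each cell cannot be told apart. Each group has 1 library, so replicates are lacking and no test between conditions was run. All values describe this 1 peak list, and the 95% intervals (exact binomial for shares, order statistics for medians, exact Poisson for fold) cover counting error only.

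Arid1b is a large DNA-binding subunit of BAF, a SWI/SNF complex. These complexes use ATP to slide or evict nucleosomes and are common at active promoters and enhancers. Mammalian genes are often arranged head to head, so that 2 genes on opposite strands start from a short stretch of DNA called a bidirectional or divergent promoter. Such promoters are usually CpG islands, often lack a TATA box, and are known to serve many genes of DNA repair, mitochondria, RNA processing and protein folding. Neighbouring genes can also lie in tandem, with the end of one beside the start of the next, or converge, with both ends meeting.

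The cells were checked against marker genes. Of 14 dental mesenchyme markers, 10 had a boundary peak, among them Msx1, Msx2, Pax9, Barx1, Twist1 and Prrx2, while Prrx1, Dlx1, Lhx6 and Lhx8 had none. A boundary peak was at 1 of 5 epithelial markers and at none of 3 endothelial, 4 blood and 4 neuronal or glial markers. Over all protein-coding genes the share was 21.6%. A peak is not a measure of expression, and none of these markers lay under a shared peak. The 829 shared peaks were 9.97% of all peaks (9.33 to 10.6) and 16.7% (15.6 to 17.7) of the 4974 peaks with a summit within 1 kb of any protein-coding boundary. The other 4145 boundary peaks reached a single gene. Of the shared peaks, 814 reached 2 genes and 15 reached 3. They covered 730 different gene pairs and 1396 genes, or 6.41% of the 21775 protein-coding genes, whereas 4710 genes (21.6%) had a summit within 1 kb of a boundary in any peak. The distance limit was sharp by construction. Just inside it were a peak between Polg2 and Ddx5, with the farther boundary 999 bp from the summit (fold 5.99), and one between Zcchc3 and 6820408C15Rik at 998 bp (fold 3.30). Just outside were Fes and Furin (fold 3.61) and Numbl and Coq8b (fold 4.75), both with the farther boundary 1002 bp away.

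The 5 promoter windows below show what some of the strongest of these sites look like at the level of sequence. They are divergent pairs of high fold for which both start sites are in the RefSeq promoter table, whose assembly GRCm38.p6 has the coordinates of mm10. Their starts also had to lie within 1 kb of the gene boundaries and not cross. Mroh8 with Rpn2 (10.3), Git2 with Ankrd13a (8.57) and Cd3eap with Ppp1r13l (8.05) have higher folds than some printed pairs but are not printed. Each is 300 bases of the plus strand, 5′ to 3′, with the start of the plus-strand gene at base 251. Capitals mark exact matches, on either strand, to any of 10 short motifs that are spelled out with the promoter results.
Cpsf2, shared with Ndufb1, chr12:101975724-101976023: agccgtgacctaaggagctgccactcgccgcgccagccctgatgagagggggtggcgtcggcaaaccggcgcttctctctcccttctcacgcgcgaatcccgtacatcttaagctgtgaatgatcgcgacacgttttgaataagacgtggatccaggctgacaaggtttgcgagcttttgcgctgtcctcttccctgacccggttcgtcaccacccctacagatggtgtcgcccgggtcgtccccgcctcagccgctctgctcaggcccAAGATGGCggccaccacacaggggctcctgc
Ndufaf8, shared with Tepsin, chr11:120098684-120098983: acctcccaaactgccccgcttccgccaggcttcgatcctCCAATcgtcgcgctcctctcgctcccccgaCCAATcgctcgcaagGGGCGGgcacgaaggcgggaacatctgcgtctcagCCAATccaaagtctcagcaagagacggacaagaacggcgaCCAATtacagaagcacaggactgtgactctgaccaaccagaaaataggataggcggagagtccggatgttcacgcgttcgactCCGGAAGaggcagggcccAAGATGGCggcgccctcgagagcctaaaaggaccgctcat
Srek1ip1, shared with Cwc27, chr13:104816920-104817219: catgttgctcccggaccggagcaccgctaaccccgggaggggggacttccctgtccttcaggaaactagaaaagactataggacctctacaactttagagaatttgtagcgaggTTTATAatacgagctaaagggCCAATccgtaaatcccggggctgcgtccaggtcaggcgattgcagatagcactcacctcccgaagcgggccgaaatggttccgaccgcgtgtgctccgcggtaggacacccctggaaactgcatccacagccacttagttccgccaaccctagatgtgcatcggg
Nudt2, shared with Kif24, chr4:41464898-41465197: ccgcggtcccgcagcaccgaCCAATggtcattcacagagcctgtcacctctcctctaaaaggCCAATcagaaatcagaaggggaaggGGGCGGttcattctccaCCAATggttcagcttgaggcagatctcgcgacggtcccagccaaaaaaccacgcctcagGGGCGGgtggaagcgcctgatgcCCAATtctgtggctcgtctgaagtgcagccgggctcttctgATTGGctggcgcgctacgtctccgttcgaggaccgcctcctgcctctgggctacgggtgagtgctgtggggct
Ska2, shared with Prr11, chr11:87109011-87109310: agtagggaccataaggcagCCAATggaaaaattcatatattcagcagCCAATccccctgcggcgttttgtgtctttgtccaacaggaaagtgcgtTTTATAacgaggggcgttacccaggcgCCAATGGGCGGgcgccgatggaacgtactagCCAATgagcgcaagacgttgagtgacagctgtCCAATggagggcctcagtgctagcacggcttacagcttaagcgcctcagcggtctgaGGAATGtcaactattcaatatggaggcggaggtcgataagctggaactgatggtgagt
In the first of these windows the start of Ndufb1, which reads to the left, is at base 15 and the Arid1b summit at base 120, so the summit lies between the start sites of the promoter table. It holds 26 CpG dinucleotides and a single match, a YY1 motif at base 270. The Ndufaf8 window has the Tepsin start at base 48 and the summit at base 102, 4 CCAAT boxes, a GC box, an ETS motif at base 243 and a YY1 motif at base 261. The summit of the Srek1ip1 window is at base 130, between the Cwc27 start at base 34 and its own start. In the Nudt2 window the summit and the Kif24 start fall just before the first base, and the 5 CCAAT boxes lie between base 21 and base 228, with 2 GC boxes at bases 88 and 164. The Ska2 window also has 5 CCAAT boxes, the third of which adjoins a GC box at base 128, and its summit is at base 132. The promoter table gives 1 start per promoter, while the gene boundaries used to choose the peaks are the outermost ends of any transcript. The starts of Ndufb1 and Cpsf2 are therefore 236 bp apart in the first source and 21 bp apart in the second. A motif match is a description of letters and not a bound site.

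Most shared peaks lay at pairs of genes that start away from each other. Strand was known for both genes in 558 of the 730 pairs (76.4%), and orientation is given for those only. Of the 558 pairs, 390 (69.9%, 65.9 to 73.7) were divergent, with the starts of both genes in reach of the summit. A further 119 (21.3%, 18 to 25) were tandem. Another 22 pairs (3.94%) joined the start of one gene to the end of an opposite-strand gene, and in 18 of these the gene bodies overlapped. Starts on the same strand were joined in 13 (2.33%), 12 (2.15%, 1.12 to 3.73) were convergent, and 2 joined ends on the same strand. A pair with several shared peaks was placed by its strongest. Among single-gene peaks with a known strand, 95.6% (94.8 to 96.3) were at the start of their gene.

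Divergent pairs were also the ones most often occupied among the close pairs of the genome. Among all 4769 pairs of protein-coding genes with boundaries at most 2 kb apart, 730 (15.3%, 14.3 to 16.4) carried a shared peak. Divergent and convergent arrangements were about equally common, with 1005 and 1048 pairs. A shared peak was present at 390 of the divergent pairs (38.8%, 35.8 to 41.9) but at only 18 of the convergent pairs (1.72%, 1.02 to 2.70). Tandem pairs lay between, at 120 of 902 (13.3%, 11.2 to 15.7), and starts on the same strand were at 13 of 43 (30.2%, 17.2 to 46.1). The intervals of divergent, tandem and convergent pairs did not overlap. Distances differed between the classes, with 396 of the 902 tandem pairs but 109 of the 1005 divergent pairs over 1000 bp apart. Pairs are classed here by their closest boundaries and above by the boundaries nearest the summit, so the tandem and convergent counts differ (120 against 119 and 18 against 12). Pairs of unknown strand were at 10.5% (9.04 to 12.1, n = 1641). These include 306 pairs of protocadherin genes, a chromosome 18 cluster of cell adhesion genes with shared ends, and none of the 306 had a shared peak. Without them the share over all close pairs was 16.4%.

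Occupancy of divergent pairs varied little with the distance between the starts up to 500 bp. A shared peak was present at 41.1% of divergent pairs with starts at most 100 bp apart (155 of 377), at 45.3% from 101 to 200 bp, at 47.8% from 201 to 300 bp and at 43.1% from 301 to 500 bp. These 4 intervals overlapped. From 501 to 1000 bp the share was 35.6% (27.0 to 44.9), and beyond that, where a summit has less room to be within 1 kb of both starts, it was 10.1% (5.15 to 17.3). Tandem pairs ranged from 19.2% to 29.1% over the same distances up to 1000 bp and fell to 1.52% beyond, and convergent pairs stayed between 1.31% and 3.35% up to 1000 bp. Divergent and tandem intervals overlapped at 101 to 200 bp (37.7 to 53.1 and 17.6 to 42.9). They also did at 301 to 500 bp (33.9 to 52.6 and 19.2 to 36.6), and at the other distances they did not. Divergent pairs whose gene bodies overlap, so that each gene starts inside the other, did not differ from pairs with separate bodies beyond their intervals (40.0% and 38.1%).

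**Figure D1:**
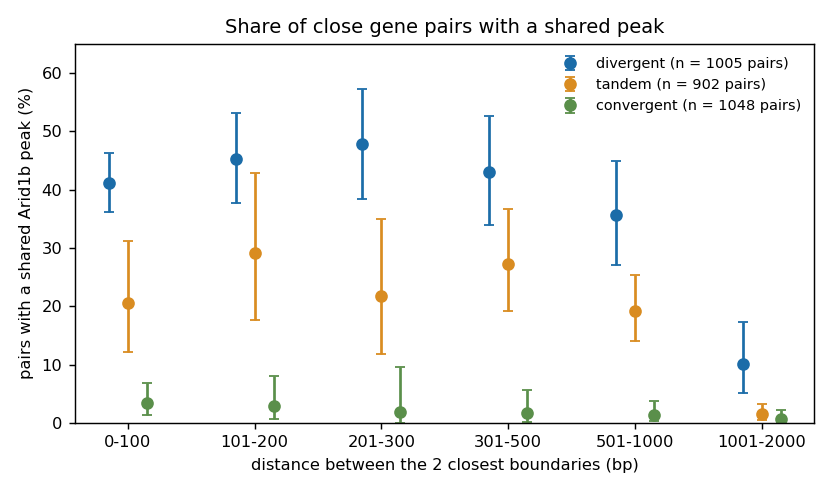
Share of close gene pairs that carry a shared Arid1b peak (y axis, %) by the distance between their 2 closest boundaries (x axis, bp), for divergent, tandem and convergent pairs. Points are shares and bars exact binomial 95% intervals; divergent pairs lie between 35.6% and 47.8% up to 1000 bp and convergent pairs at or below 3.35% throughout.

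Few divergent pairs had a boundary peak that failed to reach both genes. Of the 1005 divergent close pairs, 564 (56.1%, 53.0 to 59.2) had no boundary peak at either gene, 390 had a shared peak, and only 51 (5.07%, 3.8 to 6.62) had boundary peaks none of which reached both genes. Because the starts are so close, a summit at one gene is usually within 1 kb of the other by distance alone. Occupancy can also be counted start by start, though 1 summit between close starts then counts for both, so partners are not independent and the interval for divergent pairs is too narrow. Of 1993 genes in divergent close pairs, 811 (40.7%, 38.5 to 42.9) had a summit within 1 kb of their own start. The same was so for 1935 of 11785 genes with no close neighbour (16.4%, 15.8 to 17.1) and for 21% of all genes with a known strand.

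CpG content moved with this difference. The ratio of observed to expected CpG dinucleotides in the 300-base promoter is high in CpG islands and low where methylation has depleted CpG. In promoters with a ratio of 0.8 to 1, a summit was present at 45.7% of starts in divergent close pairs (41.9 to 49.5, n = 687) and at 44.3% of starts without a close neighbour (41.9 to 46.6, n = 1766), so the intervals overlapped. At a ratio of 1 or more the shares were 55.8% and 50.4%, again with overlapping intervals. The gap was open at lower ratios. It was 39.6% (35.2 to 44.1) against 28.6% (26.5 to 30.7) at 0.6 to 0.8, 27.2% (20.5 to 34.7) against 12.7% (10.9 to 14.6) at 0.4 to 0.6, and 14.4% (19 of 132 starts) against 1.04% (53 of 5091) below 0.4. In a divergent pair the partner's own promoter lies within reach of the summit, and its part in the difference at low ratios was not tested.

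**Figure D2:**
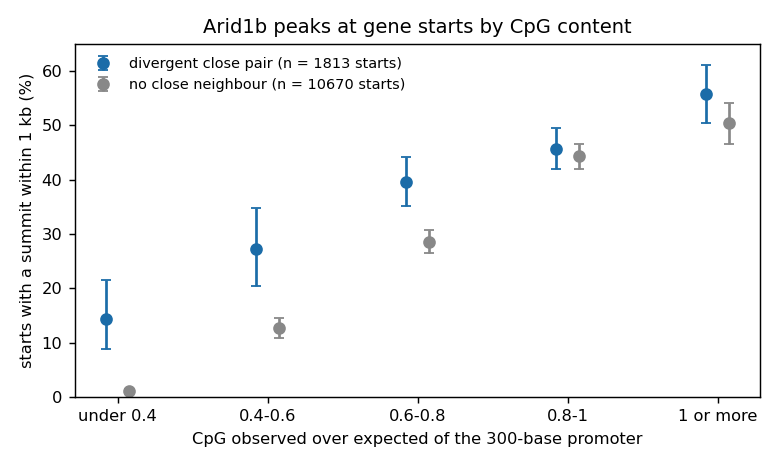
Share of gene starts with an Arid1b summit within 1 kb (y axis, %) in 5 bands of CpG observed over expected of the promoter (x axis), for genes of divergent close pairs and genes with no close neighbour. Points are shares and bars exact binomial 95% intervals; the 2 sets overlap from 0.8 upward and stand apart below.

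By the outermost gene boundaries, the summit in divergent pairs usually lay inside one of the genes and not between the starts. The call depends on the starts used. Ndufb1 with Cpsf2 and Tepsin with Ndufaf8 are counted here as inside a gene. With the starts of the promoter table, as printed above, their summits lie between the starts. The other pairs were not recounted with those starts. In 244 of the 390 pairs the starts were apart (in the other 146 they cross), and their median distance was 106 bp (quartiles 53.8 and 220 bp). For 206 of these (84.4%) it was at most 300 bp. The summit of the strongest shared peak was between the starts in 34 pairs (13.9%, 9.85 to 18.9) and inside one gene in 210 (86.1%, 81.1 to 90.2). It fell in the plus-strand gene in 121 pairs and in the minus-strand gene in 89. When inside a gene, it was a median of 230 bp from the start (214 to 258). In 167 pairs (68.4%) it lay 100 to 500 bp inside, whereas in 41 (16.8%) it was within 100 bp of the nearer start. Single-gene start peaks had a similar placement, with 80.9% of 3203 summits inside the gene and a median of 245 bp past the start (238 to 253). The median was 246 bp for genes on the plus strand and 244 bp for those on the minus strand. With a distance over 300 bp between the starts, the summit was between them in 18 of 38 pairs (47.4%), against 16 of 206 (7.77%) at shorter distances.

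The position of the summit differed with the strength of the peak. Fold is the enrichment over input at the summit as the authors list it. Among divergent pairs with starts apart, 15 of the 37 with a fold of at least 5 had the summit between the starts (40.5%, 24.8 to 57.9). Among the 207 weaker ones it was 19 (9.18%, 5.62 to 14.0). The same split was seen at single-gene starts, where 39.9% of 338 peaks with a fold of at least 5 (34.7 to 45.4) and 16.7% of 2865 weaker ones (15.3 to 18.1) had the summit upstream of the start. Strong shared peaks with the summit between the starts include Git2 and Ankrd13a, Cd3eap and Ppp1r13l, Prr11 and Ska2, and Psme2 and Rnf31. In divergent pairs, position also went with the distance between the starts, as given above. That distance had a Spearman rank correlation of 0.154 with fold (n = 244). Strength and distance were not separated.

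**Figure D3:**
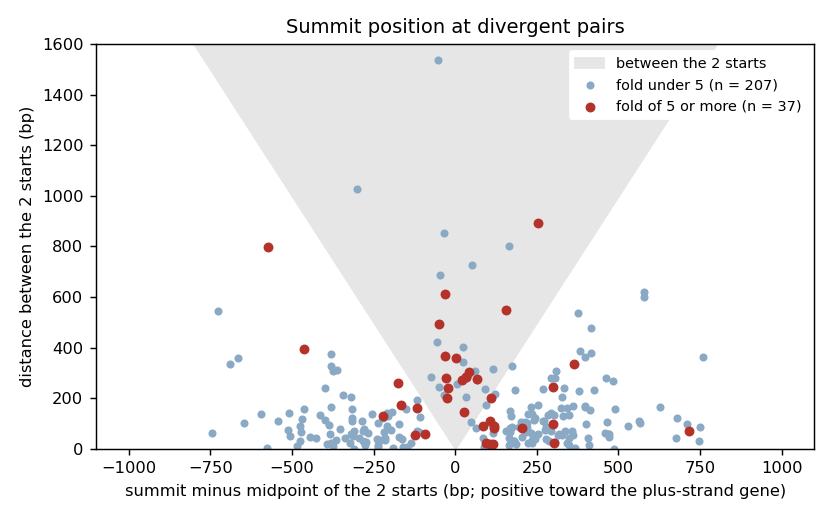
Summit position in the 244 divergent pairs with starts apart, as the distance of the summit from the midpoint of the starts (x axis, bp, positive toward the plus-strand gene) against the distance between the starts (y axis, bp). Starts are the outermost gene boundaries. The grey wedge holds summits between the starts; 15 of the 37 peaks with a fold of at least 5 (red) and 19 of the 207 weaker ones (blue) lie in it.

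Some pairs carried a peak on each side. Over the whole list, 118 pairs had 2 or more shared peaks. Of the 245 divergent pairs with starts apart at any of their shared peaks (1 of which has its strongest peak in another arrangement), 36 had exactly 2. In 22 of these 36 (61.1%, 43.5 to 76.9) there was 1 summit inside each gene, with a median of 701 bp between the summits (584 to 869, range 400 to 1026 bp). The median fold was 4.0 for the stronger and 3.27 for the weaker of the 2. At Cks1b and Shc1, which encode a cyclin-dependent kinase subunit and a signalling adaptor, the summits were 400 bp apart with folds of 5.47 and 3.41. At Psma7, a proteasome subunit gene, and Ss18l1 the folds were 2.82 and 7.23. At Palb2, a partner of the repair protein Brca2, and Dctn5, a dynactin subunit, they were nearly equal at 3.61 and 3.72. The most shared peaks of any pair were 4, at Hnrnpa2b1 and Cbx3, genes of an RNA-binding protein and of heterochromatin protein HP1 gamma whose human counterparts share a well-known CpG island that resists silencing. The 4 folds there were 4.53, 3.94, 3.22 and 3.15, with 2 summits on each side of the starts, which are 106 bp apart.

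Tandem pairs showed which of the 2 neighbours the summit went with. The summit was nearer to the start of the downstream gene than to the end of the upstream one in 106 of 119 pairs (89.1%). The median distance was 206 bp to the start and 580 bp to the end, with a median of 420 bp between the 2 boundaries. The strongest were Slbp and Tmem129 (fold 8.97, 7.23 to 11.0), Jpt2 and Cramp1l (6.4) and Atxn7l2 and Sypl2 (6.2). Slbp binds the stem-loop at the end of replication-dependent histone messenger RNAs. The input level, recovered from fold and p-value, was above the genome background at 66.7% of tandem shared peaks (57.8 to 74.7) and at 54.4% of divergent ones (49.7 to 59.0). Convergent pairs were few, 12 in all, and the strongest were Gys1 and Ftl1 (6.09), Hrc and Ppfia3 (6.04) and Rpl10a and Tead3 (5.26). Of the 15 shared peaks at convergent pairs, 13 had input above background.

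Shared peaks were as wide as single-gene peaks in the middle of the range and a smaller share of them was 1000 bp or wider. The median width was 302 bp for shared peaks (290 to 317, quartiles 239 and 443 bp) and 309 bp for single-gene peaks (303 to 316, quartiles 238 and 450 bp). The difference of −7 bp lies inside the −26 to 14 bp spanned by the limits of both medians. A width of 500 bp or more was seen in 151 shared peaks (18.2%, 15.6 to 21) and in 19.9% of single-gene peaks (18.7 to 21.1). A width of 1000 bp or more was seen in 12 shared peaks (1.45%, 0.75 to 2.51) and in 132 single-gene peaks (3.18%, 2.67 to 3.77), with intervals that do not overlap. Away from boundaries it was 6.85% of 3344 peaks. Against single-gene peaks at a start alone, divergent shared peaks had a median of 294 bp (273 to 312, n = 458) against 311 bp (304 to 320), and 1.09% (0.355 to 2.53) against 2.78% (2.24 to 3.41) were 1000 bp or wider.

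Width went with height, so widths were also compared within 4 bands of fold set by the quartiles of all boundary peaks. The medians of shared and single-gene peaks were 274 and 284 bp in the lowest band (fold up to 3.34), 256 and 284 bp in the next, 302 and 307 bp in the third, and 375 and 419 bp above a fold of 4.34. The shared median was lower in all 4 bands, but the intervals of the 2 medians overlapped in each. On single autosomes the shared median was higher on 9 of 19. In the top band 11 of 242 shared peaks (4.55%, 2.29 to 7.99) and 89 of 994 single-gene peaks (8.95%, 7.25 to 10.9) were at least 1000 bp wide, and these intervals overlapped.

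Most peaks at divergent pairs did not span both starts, taken as the outermost gene boundaries. Only 37 of the 390 divergent pairs (9.49%) had both starts inside the listed interval of the strongest peak. The widest shared peak was 1864 bp, at chr7:45456049-45457912 (mm10) between Gys1, the muscle glycogen synthase, and Ftl1, the ferritin light chain. Other wide ones were at Zbtb25 and Zbtb1 (1844 bp), Hnrnpll and 4933407O12Rik (1804 bp) and Ddx5 and Cep95 (1461 bp). Flot1 and Tubb5, Cebpg and Gm45095, and H2-Ke6 and Slc39a7 ranged from 1276 down to 1184 bp. Zbtb25 and Zbtb1, a pair of zinc finger repressor genes, had a fold of 4.70, well under that of many narrower peaks. At the other end, many shared peaks had the 200 bp minimum of the list. The weakest of these were at Prr12 and Prrg2, Vcpkmt and Sos2, Srgap2 and Fam72a, and Pdf and Cog8, with folds of 2.57 to 2.83, while the one at BC029722, Eif6 and Mmp24 had 4.55.

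**Figure D4:**
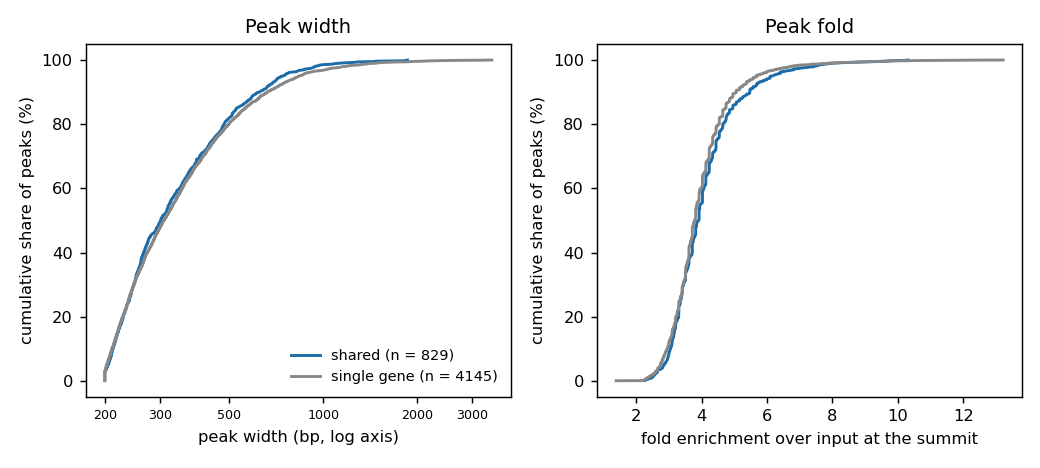
Cumulative share (y axes, %) of shared and single-gene peaks by width (left, bp, log axis) and by the authors' fold over input at the summit (right). The width curves run together up to about 300 bp and the shared curve ends at 1864 bp against 3472 bp; in fold the shared curve lies slightly to the right.

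Fold was slightly higher in shared peaks. The median was 3.92 (3.82 to 3.94, quartiles 3.35 and 4.47) against 3.79 (3.75 to 3.82) in single-gene peaks and 3.61 in peaks away from boundaries. Among peaks whose local input was at the genome background, 358 shared and 1861 single-gene, the difference of the medians was 0.0. A fold of at least 5 was seen in 116 shared peaks (14.0%, 11.7 to 16.5) and in 433 single-gene peaks (10.4%, 9.53 to 11.4). The median pileup at the summit was 39 fragments in both, over a genome background of 8.68. At that depth single peaks were imprecise. In 686 of the 829 (82.8%) the interval of the fold held the median of all peaks, 3.72, so their order in the middle of the range cannot be read.

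The strongest shared peak was at Mroh8 and Rpn2, at chr2:157278732-157279637 (mm10), with a pileup of 113 fragments and a fold of 10.3 (8.51 to 12.4). Rpn2 is a subunit of the enzyme that attaches sugars to proteins in the endoplasmic reticulum, and its peak is 906 bp wide. Next came Atg12, an autophagy conjugation factor, with Ap3s1 at 10.2, and Cdca2 with Kctd9 and Rnf5 with Agpat1, both at 9.71. Ndufb1 and Cpsf2, a subunit of respiratory complex I and one of the messenger RNA cleavage and polyadenylation complex, had a fold of 9.40 (7.69 to 11.4) in an 830 bp peak that covers both starts. Slbp and Tmem129 followed at 8.97, Git2 and Ankrd13a at 8.57, Tepsin and Ndufaf8 at 8.26, Cd3eap and Ppp1r13l at 8.05 and Ndst2 and Camk2g at 7.89. The Poisson intervals of these 10 peaks all overlap one another, so their order is not fixed. The other 3 pairs whose windows are printed above, Cwc27 with Srek1ip1, Kif24 with Nudt2 and Prr11 with Ska2, had folds of 7.85, 7.64 and 7.44. The weakest were Traf4 and Nek8 (2.28), Alkbh1 with Nrp and Slirp (2.29) and Ranbp1 and Trmt2a (2.31).

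The 15 peaks with 3 genes were not wider, with a median of 269 bp (224 to 375) and a fold of 4.03. The strongest was 232 bp wide at Rad17, Ak6 and Taf9, with a fold of 5.72. Taf9, a TFIID subunit, and Ak6, an adenylate kinase, start at the same base, and Rad17, a DNA damage checkpoint gene, starts 282 bp away in the other direction. Atf5, Nup62 and Il4i1b carried 2 such peaks, at 4.74 and 3.35.

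Gene groups were read as the share of their members under a shared peak, beside 6.41% of all protein-coding genes. Several groups of basic cell machinery had higher shares. They also had more genes in a close pair than the 32.2% over all genes. Among protein-folding genes, 17 of 82 chaperones (20.7%, 12.6 to 31.1) were under a shared peak, at folds from 2.87 to 5.68 with a median of 3.92, the same as over all shared peaks. They include Cct6a with Psph (5.68), Cct5 with Atpsckmt (5.37), and the mitochondrial chaperonin pair Hspd1 and Hspe1, which encode Hsp60 and Hsp10 from one divergent promoter (2.87, 757 bp wide). Chaperone genes in a close pair carried a shared peak in 42.5% of cases (27.0 to 59.1), against 19.9% of all genes in a close pair.

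Mitochondrial genes were under shared peaks on both the protein synthesis and the respiratory side. Of 78 mitochondrial ribosome genes, 15 (19.2%, 11.2 to 29.7) were, with Mrps27 beside Ptcd2 (5.23), Mrpl48 beside Rab6a (5.06) and Mrps18b beside Ppp1r10 (5.06) highest. Mrpl46 and Mrps11, one from each subunit of that ribosome, share a divergent promoter and a peak of fold 4.65. Close pairs hold 64.1% of mitochondrial ribosome genes against 32.2% of all genes, and 30.0% (17.9 to 44.6) of those were under a shared peak. Of 112 respiratory chain and ATP synthase genes 16 were (14.3%, 8.39 to 22.2), and of those in close pairs 24.2% (14.5 to 36.4). Folds ran from Uqcrq at 3.17 to Ndufb1 at 9.40, with Uqcrh, a complex III subunit, beside Lrrc41 at 6.71. Mitochondrial import genes stood at 2 of 25 (8.0%, 0.984 to 26.0), and at 11.8% of those in close pairs (1.46 to 36.4). For each of these mitochondrial groups the close-pair interval holds the 19.9% of all genes in close pairs.

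Genes of transcription and RNA processing followed. Shared peaks covered 7 of 28 RNA polymerase subunit genes (25%, 10.7 to 44.9), led by Polr2l with Tspan4 (5.09), Polr1a with Ptcd3 (5.06) and Polr2a, the catalytic subunit of RNA polymerase II, with Slc35g3 (4.44). Close pairs hold 71.4% of these genes, and 35.0% of those (15.4 to 59.2) carried a shared peak, against 19.9% of all genes in close pairs. Shared peaks covered 10 of 78 Mediator, TFIID and general factor genes (12.8%, 6.32 to 22.3, and 22.7% of those in close pairs). They covered 12 of 69 spliceosome genes (17.4%, 9.32 to 28.4, and 33.3% of those in close pairs, 18.6 to 51.0), where U2af2, which binds the polypyrimidine tract, reached 6.4. Of cytosolic ribosomal genes 18 of 101 were (17.8%, 10.9 to 26.7, and 37.5% of those in close pairs, 24.0 to 52.6), among them Rpl36al with Mgat2 (5.68). Translation initiation factors stood at 5 of 56 (8.93%, and 17.2% of those in close pairs), with Eif1ad, listed by its symbol, beside Banf1 at 6.82. Aminoacyl-tRNA synthetases stood at 5 of 37 (13.5%, and 26.3% of those in close pairs, 9.15 to 51.2).

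Genes of DNA replication, repair and division were also present. Their shares stand beside 6.41% of all genes and 19.9% of all genes in close pairs. Of the groups in this paragraph, only centrosome and centriole genes had a close-pair interval above 19.9%. Fanconi, BRCA and RAD repair genes stood at 9 of 57 (15.8%, 7.48 to 27.9), and 63.2% of them are in close pairs, of which 25% (12.1 to 42.2) carried a shared peak. Fancm, a DNA translocase of the Fanconi pathway, had 7.44 with Fkbp3. Of 29 replication licensing and fork genes 4 were under a shared peak, namely Mcm4 with Prkdc (6.09, with a second peak at 4.54), Mcm7 with Ap4m1 (5.47), Pcna with Cds2 (4.23) and Orc6 with Vps35 (4.03). Centrosome and centriole genes stood at 13 of 56 (23.2%, 13.0 to 36.4, and 43.3% of those in close pairs, 25.5 to 62.6). Their folds ran from 3.25 to 5.27, with Cep95, Cep57 and Cep63 highest. The anaphase-promoting complex list gave 4 of 21 (19.0%, 5.45 to 41.9, and 40.0% of those in close pairs, 12.2 to 73.8). Anapc11 stood beside Alyref at 5.47, and Anapc13 shared its promoter with Cep63 at 4.75. The highest of that list, Cdc40 with Wasf1 (7.33), was taken in by its name and is known as a splicing factor. Of 28 intraflagellar transport and BBSome genes 3 were (10.7%, 2.27 to 28.2), the highest being Ift140 with Cramp1l (5.68).

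Genes of protein turnover and membrane traffic ranged from near the background to about the level of the groups above. Proteasome genes stood at 6 of 51 (11.8%, 4.44 to 23.9), with Psma7 at 7.23 and Psme2, an activator subunit, beside the ubiquitin ligase gene Rnf31 at 5.78. Ubiquitin genes stood at 27 of 333 (8.11%, 5.41 to 11.6), vesicle sorting genes at 15 of 129 (11.6%, 6.66 to 18.5) and small GTPase genes at 15 of 116 (12.9%, 7.42 to 20.4). Counting only genes in close pairs, the shares were 22.2% for proteasome (8.62 to 42.3) and 21.4% for ubiquitin genes (14.6 to 29.6). They were 26.8% for vesicle sorting (15.8 to 40.3) and 31.9% for small GTPase genes (19.1 to 47.1), against 19.9% of all genes in close pairs. Solute carriers matched the background, at 24 of 375 (6.4%, 4.14 to 9.37).

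**Figure D5:**
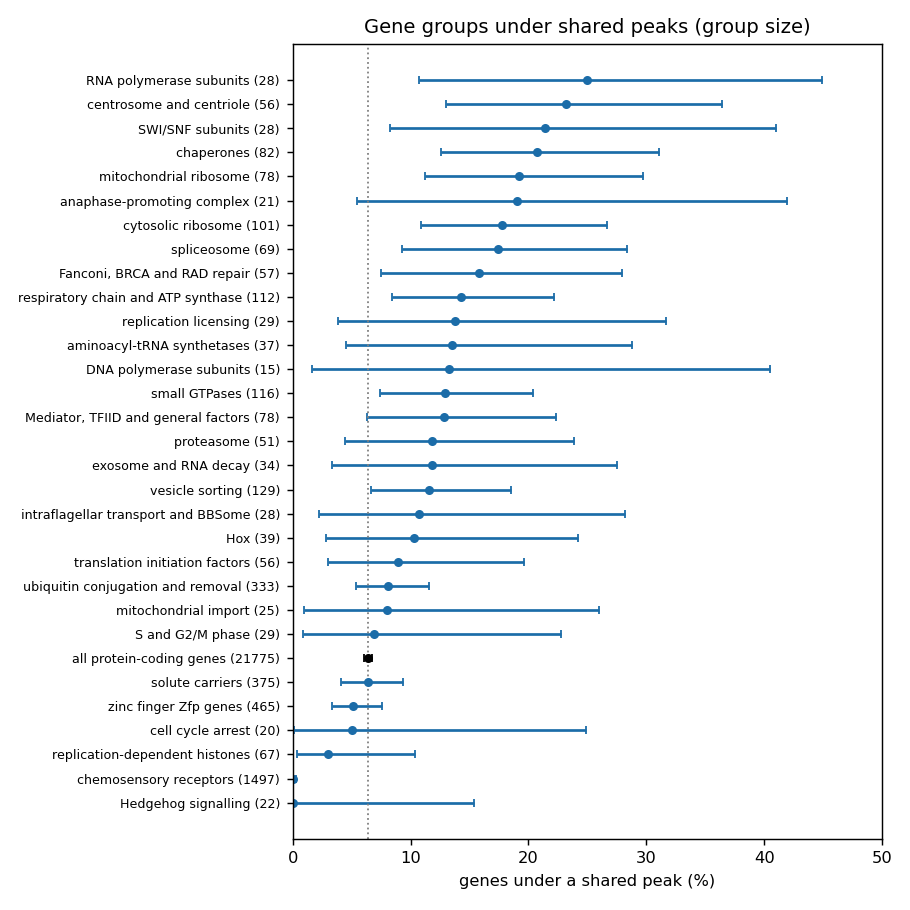
Share of each gene group's members that lay under a shared peak (x axis, %), with group sizes in brackets; points are shares, bars exact binomial 95% intervals, and the dotted line the share of all protein-coding genes, 6.41%. RNA polymerase, centrosome, SWI/SNF and chaperone genes are highest, and no Hedgehog or chemosensory gene is under a shared peak. Groups differ in how many members are in a close pair, with only 8 Hedgehog and 28 chemosensory genes.

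Among groups of regulators and clustered genes the shares were mixed. Zinc finger genes stood at 24 of 465 (5.16%, 3.33 to 7.58), and 27.1% of them had a boundary peak of some kind, against 21.6% of all genes. Only 23.4% of them are in a close pair, and of those 22.0% (14.6 to 31.0) carried a shared peak, close to the 19.9% of all genes in close pairs. Replication-dependent histone genes stood at 2 of 67 (2.99%, 0.364 to 10.4), both under the peak of H2ac21 and H2ac20 (4.23), although 77.6% of them lie in close pairs. Hox genes stood at 4 of 39 (10.3%, 2.87 to 24.2), as the pairs Hoxb8 with Hoxb7 (4.03) and Hoxa5 with Hoxa6 (3.63, tandem). Another 16 Hox genes had single-gene peaks only, so 51.3% had a boundary peak of any kind, against 21.6% of all genes. None of 1497 chemosensory receptor genes was under a shared peak, which allows a share of up to 0.246%. Only 28 of them (1.87%) are in a close pair, and among those 28 the interval reaches 12.3%.

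Groups tied to the study's title had shares whose intervals hold the background. None of 22 Hedgehog genes was under a shared peak (up to 15.4%). Only 8 of them are in a close pair, and among those 8 the interval reaches 36.9%. A single-gene peak was at 6 of the 22 (27.3%), while 21.6% of all genes had a boundary peak of any kind. Of 20 cell cycle arrest genes 16 had a boundary peak, but 15 of these were single-gene, and 2 of the 20 are in a close pair. The 1 under a shared peak (5.0%, 0.127 to 24.9) was Trp53, the p53 tumour suppressor, under a 200 bp peak with Wrap53, a telomerase RNA chaperone gene that starts 98 bp away on the other strand (fold 3.30, 2.28 to 4.65). Of 29 S and G2/M genes 2 were under a shared peak (6.9%, 0.846 to 22.8), Foxm1 with Rhno1 (4.03) and Aurka with Cstf1 (3.40).

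The genes of the SWI/SNF complexes themselves gave 6 of 28 (21.4%, 8.30 to 41.0), against 6.41% of all protein-coding genes. Ss18l1 with Psma7 had 7.23 (5.65 to 9.12), with starts 19 bp apart. Smarcc2, a core scaffold subunit, had 5.05 at its end, where it meets the end of Myl6. Arid2 and Pbrm1, both of the PBAF form of the complex, had 4.85 with Gm38469 and 3.92 with Gnl3. Bicral with Tbcc had 3.72 and Smarcd2 with Tcam1 2.65 (1.94 to 3.53). Genes in a close pair were 53.6% of this group, against 32.2% of all genes. Of these, 40.0% (16.3 to 67.7) carried a shared peak, an interval that holds the 19.9% of all genes in close pairs.

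Most pairs had no gene of any group. Of the 730 pairs, 480 had no gene in any of the 30 groups, 215 had 1 and 35 had both, and in 10 of the 35 both genes were of the same group. Besides those given above, these include the zinc finger pairs Zbtb25 and Zbtb1, Zfp668 and Zfp646, Zfp786 and Zfp398, and Zfp445 and Zkscan7. A predicted or clone-named gene was part of 80 pairs.

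Promoters under divergent shared peaks were rich in GC and CpG. Over 732 promoters of 300 bases whose start is within 1 kb of the gene boundary, median GC was 64.3% and median CpG observed over expected 0.877. For 2519 promoters under single-gene start peaks these were 64.3% and 0.839, for 1035 promoters of divergent close pairs without a peak at either gene 60.7% and 0.799, and for all 15751 promoters 56.3% and 0.586. Partners with starts close together share part of their sequence, so the promoters are not independent.

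Motifs were searched on both strands as exact letters, none contained in another. The ETS motif CCGGAAG was in 29.8% of promoters under divergent shared peaks (26.5 to 33.2), 17.5% under single-gene start peaks (16.0 to 19.0), 24.2% in divergent close pairs without a peak (21.6 to 26.9) and 12% of all. The YY1 motif AAGATGGC was in 8.61% (6.68 to 10.9), 5.04% (4.22 to 5.97), 6.38% and 3.28%. For both motifs, the interval under divergent shared peaks lay above that under single-gene start peaks and overlapped that of divergent pairs without a peak. The GC box GGGCGG was in 69.8% (66.3 to 73.1) against 75.9% (74.1 to 77.5), 61.2% and 46.7%. TATAAA was in 3.96% (2.67 to 5.64) against 5.88%, 6.57% and 13.7%. CCAAT was in 39.5%, 40.7%, 42.0% and 39.4%, within a few percentage points in all sets. The other 5 motifs are given in the same order of sets. NRF1 (GCGCATGC) was in 5.33%, 6.19%, 6.09% and 3.73%, and CRE (TGACGTCA) in 2.46%, 3.93%, 4.44% and 2.38%. AP-1 (TGANTCA) was in 2.87%, 3.85%, 3.77% and 7%, TEAD (GGAATG) in 9.15%, 10.4%, 11.4% and 13.3%, and E2F (TTTCGCGC) in 0.956%, 0.675%, 1.74% and 0.463%. All but E2F were thus lower under divergent shared peaks than under single-gene start peaks, and all 5 were lower than in divergent pairs without a peak, with overlapping intervals.

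Long noncoding RNA genes were seldom a further neighbour. A boundary of one was within 1 kb of the summit in 27 shared peaks (3.26%, 2.16 to 4.70), against 664 single-gene peaks (16.0%) and 399 peaks away from coding boundaries (11.9%). By chromosome, shared peaks were from 10.7% of boundary peaks on chromosome 13 to 24.0% on chromosome 17 among autosomes, and 2 of 24 on X.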

How the data were processed

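The 829 peaks and the gene groups were chosen with earlier results of these data known. FastQC 0.11.8, Bowtie2 2.2.5, Picard, MACS2 2.1.1 and mm10 as the build come from the lists per the submitters' processing notes. Not given in the sources used here are the parameters, read numbers and duplicate handling. The authors' deposited peak list, 1 ChIP over 1 input, gives a linear fold over input at the summit, the p-value and q-value as −log10, and a score, with no header. The deposited score was not used.

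Pileup and expected input were recovered from fold and p-value as (pileup + 1)/(expected + 1) and a Poisson tail, with a largest error of 0.000162 in −log10 p. Genes were the 21775 nuclear protein-coding genes of the RefSeq table of GRCm38.p6, without 108 listed at scaffold coordinates. Strand came from the promoter table for 17491 (80.3%) of them. Under the planned 80% of pairs had it (76.4%), so orientation covers known pairs only. Statistics used Python 3.11.15, pandas 2.3.3, numpy 2.4.6 and scipy 1.17.1 and were tested on simulated peaks.

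Named pairs were the 10 strongest, 8 widest, 4 narrowest (lowest fold first) and 3 weakest peaks, those next to the 1 kb limit, the 3 strongest per arrangement and per gene group, and all with a SWI/SNF, Hedgehog or cell cycle gene. Other genes named, the pairs with several peaks, the 3-gene peaks, the CpG bands and the split of summit position by fold were chosen after their values were seen. Some pairs within the rule are left out of the text. Printed windows also had to have starts within 1 kb of the gene boundaries that do not cross. The alternatives were other distances, stricter peaks, merged intervals, fold bands and other sets of genes, pairs and single-gene peaks.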

Additional observations from a re-analysis of the deposited data

How the results depend on the processing

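The share of boundary peaks that are shared, 16.7%, was 12.9% with a 500 bp limit, 19.2% with 2 kb, 21.1% among peaks with a fold of at least 5, 15.3% without clone or model gene names and 11.2% when only pairs with separate gene bodies counted. The median width of 302 bp was 511 bp at a fold of at least 5, 354 bp with intervals closer than 500 bp merged (6609 peaks), 282 bp where the local input was at background, and 274, 256 and 375 bp in fold bands 1, 2 and 4. The width difference of −7 bp was −28 bp in band 2 and −44 bp in band 4 and was positive in 1 of 14 alternatives, at 7 bp with merged intervals. The fold difference of 0.129 was −0.0152 and −0.043 in bands 2 and 3 and 0.0 where the local input was at background. The bands and the cut at a fold of at least 5 are set on fold itself, so they limit this difference by construction. They are among the 13 alternatives for fold counted below. The divergent share of 69.9% was 82.0% with 500 bp, 56.9% with 2 kb and 75.8% where the local input was at background. In the order given, 3 of 8, 7 of 13, 12 of 14, 11 of 13 and 5 of 8 alternatives moved the value by less than its counting interval. The cause was not tested. The alternative with the strongest peak of each pair or gene was chosen after seeing the data. No paired analysis was possible because there was 1 library per group, and no library could be left out. A pileup near 39 fragments limits what single folds can show.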
